A study of Mus musculus with 9 samples.

Results

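Tristetraprolin (TTP, gene Zfp36) is a zinc finger protein that binds AU-rich elements, stretches of A and U in the untranslated end of short-lived mRNAs, and recruits the enzymes that shorten the poly(A) tail. Its relatives Zfp36l1 and Zfp36l2 bind the same kind of element. The mRNAs described here are 10 that have been reported as TTP targets: the cytokines Tnf and Il10, the angiogenesis and hypoxia genes Vegfa and Hif1a, the stress genes Ier3 and Plk3, the survival kinases Pim1 and Pim3, the apoptosis inhibitor Birc3 and the Hippo pathway kinase Lats2. They were chosen by name, and all 23 probe sets that the platform annotation gives to 1 of these genes were read out of 45037 on the array. A further probe set that the annotation shares between Lats2 and Xpo4 was left out.

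The 9 samples were mouse lymphomas with 1 Affymetrix mouse genome array each. Of these, 4 came from Eμ-Myc mice without the TTP transgene and 5 from mice that carried Eμ-TTP-1 beside Eμ-Myc, called double-transgenic below. The strain background was 94% C57BL/6 in both groups, and no age, sex or treatment is given in the labels. Eμ is the enhancer of the immunoglobulin heavy chain gene, which directs both transgenes to B cells, so the controls share the Myc transgene and differ, by their labels, in TTP-1. The double-transgenic tumours are those that arose with the second transgene present. The labels call the samples biological replicates without saying how many animals gave them. The 9 tested B cell markers had a mean log2 intensity of 10.39 to 11.84 in 8 arrays and of 9.15 in double-transgenic replicate 2. That lower mean came mostly from Cd22, a surface receptor of B cells, with 6.99 there and 11.91 to 12.93 elsewhere, and Fcrla, with 4.78 there and 10.64 to 12.96 elsewhere. Other B cell genes went both ways in that tumour. Cd79b, a chain of the B cell receptor, had its highest level there, at 15.30, and the early B cell factor Ebf1 stood at 12.08. Cr2 had its lowest level there, at 2.81, with 2.82 to 10.43 elsewhere. Blk read 6.64 there and 6.01 to 11.76 elsewhere, and Pax5 8.49 there and 8.32 to 9.65 elsewhere. Where the sign of a difference turns without that tumour or another, the value without it is given beside it, or a range over arrays left out is given in the closing sections.

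All levels are log2 intensities, and a value of 4 (an intensity of 16) was taken as the level under which a probe set could not be told from background. A level compares arrays and not genes, since each probe set has its own brightness. Of the 10 genes, 8 had a log2 level over 4 in at least 4 arrays and were tested. Il10 and Plk3 did not pass, so nothing is known here of their difference. In bulk tumour RNA, fewer cells of a type and less RNA per cell cannot be told apart.

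No target mRNA passed the test between the genotypes, in a comparison where 0% of 10172 tested genes passed. Of the 8 tested targets, 5 had a higher and 3 a lower mean in double-transgenic lymphomas, and their median log2 difference was 0.16. Over all tested genes 58.9% had a higher mean, with a median difference of 0.05. The values of the groups overlapped for each of the 8, while they did not overlap for 1.64% of all tested genes. Vegfa was the single target with an unadjusted limma p under 0.05, and 3.87% of all tested genes were higher at that level.

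**Figure D1:**
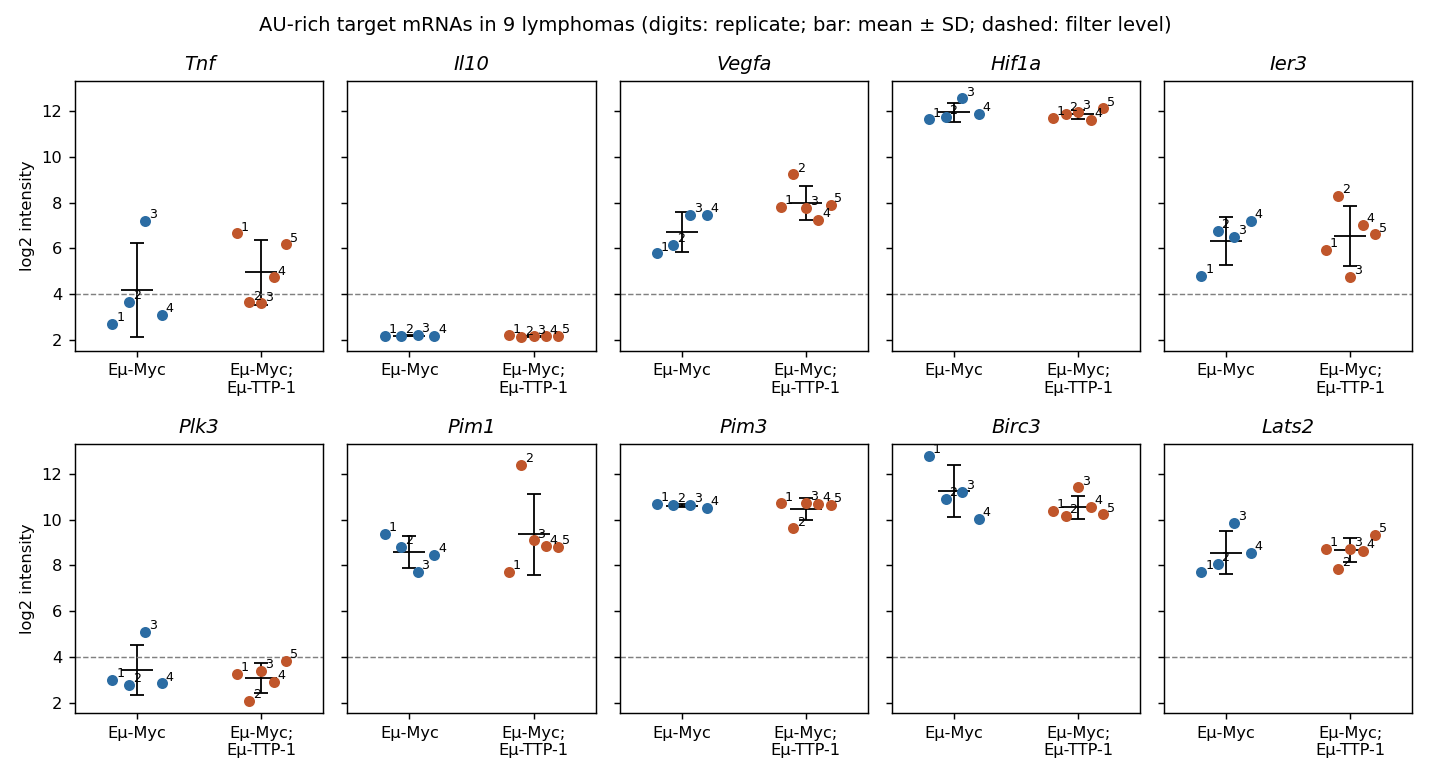
Log2 intensity of the 10 target mRNAs (y axis) in 4 Eμ-Myc and 5 double-transgenic lymphomas (x axis), 1 point per array with its replicate number, and bars for the mean ± SD; the dashed line is the filter level of 4. Il10 lies under the line in every array, Plk3 in all but 1, and Pim1 stands at 12.39 in double-transgenic replicate 2.

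The regulators themselves were expressed in every tumour. Zfp36 read 10.84, 10.20, 11.01 and 10.24 in Eμ-Myc replicates 1 to 4, and 10.85, 9.98, 10.80, 10.34 and 10.79 in double-transgenic replicates 1 to 5. These 9 values fell into sets of 4 and 5 arrays with a gap of 0.45 between 10.34 and 10.79, and each set held tumours of both genotypes. The low set held the even-numbered replicates of both groups and the high set the odd-numbered ones. The labels give no meaning to the numbers beyond naming a replicate, and their part in the Zfp36 values was not tested. Differences are given as the double-transgenic mean minus that of Eμ-Myc, and for Zfp36 this was -0.02 on the log2 scale with a 95% interval of -0.59 to 0.55. Zfp36l1 ranged over 12.70 to 13.68 in the first group and 12.36 to 13.10 in the second. Zfp36l2 read 13.11 to 14.30 and 13.94 to 14.57, and Eμ-Myc replicates 1 and 4 were lower than the other 7 arrays by at least 0.82. Its further probe sets lay under the background level in all arrays, at 1.65 to 1.70 and 1.38 to 1.58. Whether the Zfp36 probe set detects the transgene's mRNA is not known, so its level does not check the genotype labels.

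Short windows of the promoters are shown for the 5 targets in which a match to either of a pair of motifs was found, because Myc binds the E-box CACGTG and NF-kB induces several of these genes. The sequences are from RefSeq (assembly GRCm38.p6), in which 9 of the 10 targets have a promoter entry, and Il10 was not matched. Each runs 5′ to 3′ on the gene's strand with the match in capitals.
Hif1a, chr12:73907722-73907747, plus strand: cacagacaagCACGTGagcggggcag
Lats2, chr14:57746118-57746143, minus strand: gaggaggggtCACGTGacgcccgtgg
Pim1, chr17:29493017-29493042, plus strand: aaacaggaatCACGTGgtctgaaacc
Ier3, chr17:35821611-35821640, plus strand: tgcgaagggcGGAGTTCCCCccggcccggc
Vegfa, chr17:46032476-46032505, minus strand: tagtggcctaGGGGCTCCCCgaaaggcggt
The E-box, which reads the same on both strands, was found in 3 of the 9 targets and in 8.09% of all genes in that table. The NF-kB consensus, searched on both strands, was found in 2 of the 9 and in 5.14% of all genes. Only a short stretch around each start site was searched, so a target without a match there may have one farther away. A gene was counted if any of its entries matched, with 32851 entries for 27025 genes. A match describes these letters and is not a binding site. The AU-rich elements lie at the other end of the mRNA, and their sequences were not analysed here.

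Tnf, the inflammatory cytokine whose mRNA is the best studied target of TTP, lay under the background level in 5 tumours and above it in 4. It read 2.69, 3.68, 7.20 and 3.10 in Eμ-Myc replicates 1 to 4, and 6.66, 3.64, 3.60, 4.73 and 6.17 in double-transgenic replicates 1 to 5. The high tumours were replicate 3 of Eμ-Myc and replicates 1 and 5 of the double-transgenic group, so the split ran within both groups. The log2 difference was 0.79 (SE 1.04) with a 95% interval of -1.58 to 3.16, and the limma adjusted p was 0.935. With arrays left out one by one it ranged from 0.30 without Eμ-Myc replicate 1 to 1.80 without Eμ-Myc replicate 3 (limma adjusted p from 0.637 to 0.982), and it was 0.35 with a pseudocount of 16. The low values lie under the background level, so the fold is poorly determined, and any coefficient of Tnf given below orders and spaces readings that cannot be told from background.

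A myeloid gene was high in some of the same tumours. Lyz2, the lysozyme gene of macrophages and granulocytes, had its highest readings, 15.13 each, where Eμ-Myc replicate 3 and double-transgenic replicate 5 were high for Tnf. The third Tnf-high tumour had 14.44, below the 14.62 of double-transgenic replicate 3, and the other 5 arrays had 13.23 to 14.17. Csf1r, the receptor that maintains macrophages, stood at 12.33 in replicate 3 of Eμ-Myc, with 9.36 to 10.81 elsewhere. Over the whole macrophage list, 13 of 16 genes were tested, Vsig4 was at background in every array, and the summed intensity was 24282 to 78163 in the 4 Eμ-Myc arrays against 36271 to 56147 with the TTP transgene. The mean log2 level of that list was 9.11 and 9.04 in double-transgenic replicates 1 and 5, lower than in 6 of the other 7 arrays, so the list as a whole did not follow Tnf. The part of these cells in the Tnf values was not tested.

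Il10, an anti-inflammatory cytokine that B cells and macrophages can make, was at background throughout. Its single probe set read 2.11 to 2.21 over the 9 arrays. Of the 7 genes fixed as its receptor and signalling pathway, all were tested, 3 had a higher and 4 a lower mean with the TTP transgene, and 0 passed (limma, lowest adjusted p 0.86), with 0 under an unadjusted p of 0.05. Jak1, a kinase of the receptor, had a difference of 0.83 (SE 0.49), and Tyk2, its partner kinase, 0.23 (SE 0.43), which turned to -0.18 without double-transgenic replicate 1. The receptor chain Il10rb had -0.59 (SE 0.33) and the NF-kB cofactor Bcl3 -0.82 (SE 0.57).

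Among TNF receptors and NF-kB components, 17 of 20 listed genes were tested, 7 were higher and 10 lower, and 0 passed (limma, lowest adjusted p 0.898), with 0 under an unadjusted p of 0.05. The adaptor Traf1 had a log2 difference of -0.83 (SE 0.78) and the subunit Relb -0.54 (SE 0.88), which was 0.0346 without Eμ-Myc replicate 1. At the other end stood the TNF receptor Tnfrsf1b with 0.60 (SE 0.55) and the NF-kB inducing kinase Map3k14 with 0.34 (SE 0.38). The median of this list was -0.10.

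Vegfa, the growth factor that drives the sprouting of blood vessels, had the largest difference among the 8 tested targets. It read 5.78, 6.16, 7.48 and 7.48 in Eμ-Myc replicates 1 to 4, and 7.83, 9.24, 7.76, 7.25 and 7.89 in double-transgenic replicates 1 to 5. All 5 double-transgenic values exceeded the Eμ-Myc mean of 6.72 ± 0.88 (SD, n = 4), but the lowest of them lay under the higher Eμ-Myc values, so the groups overlapped. Between the groups the log2 difference was 1.27 (SE 0.49), a 2.41-fold higher level with a 95% interval of 1.11-fold to 5.24-fold. The exact permutation p over all splits of the arrays was 0.0317 (two-sided), and the limma p of 0.0305 became 0.845 after adjustment over all genes, so the difference did not pass. It stayed between 0.96 and 1.52 when arrays were left out in turn. The other Vegfa probe set lay under the background level in all arrays, at 2.80 to 3.95.

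Hif1a encodes the oxygen-regulated transcription factor that induces Vegfa, and its mRNA varied little. It read 11.64, 11.76, 12.56 and 11.87 in Eμ-Myc replicates 1 to 4, and 11.72, 11.88, 11.97, 11.61 and 12.12 in double-transgenic replicates 1 to 5. The SD over the 9 arrays was 0.29, less than the 0.36 of the median tested gene. Eμ-Myc replicate 3 was the highest, and there the genes of chromosome 12, where Hif1a lies, had a median deviation of 0.34 from their own medians over all arrays. Its log2 difference was -0.09 (SE 0.21, limma adjusted p = 0.971), and the second expressed probe set gave 0.27 (SE 0.25), so the direction was not determined. The remaining 2 probe sets of Hif1a were at background.

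Of 23 listed genes of hypoxia and VEGF signalling, 21 were tested, with 11 higher, 10 lower and a median of 6.14e-04. None passed (limma, lowest adjusted p 0.845), and 2 of the 21 had an unadjusted p under 0.05, in opposite directions, beside 5.67% of all tested genes. The mitophagy receptor Bnip3, a target of HIF1, had a log2 difference of 1.05 (SE 0.42). The oxidase Ero1a, also induced by hypoxia, had -0.37 (SE 0.11), and its values did not overlap between the groups, as for 1.64% of all tested genes. The VEGF receptor Kdr had 0.69 (SE 0.45) and the co-receptor Nrp1 -0.39 (SE 0.34).

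**Figure D2:**
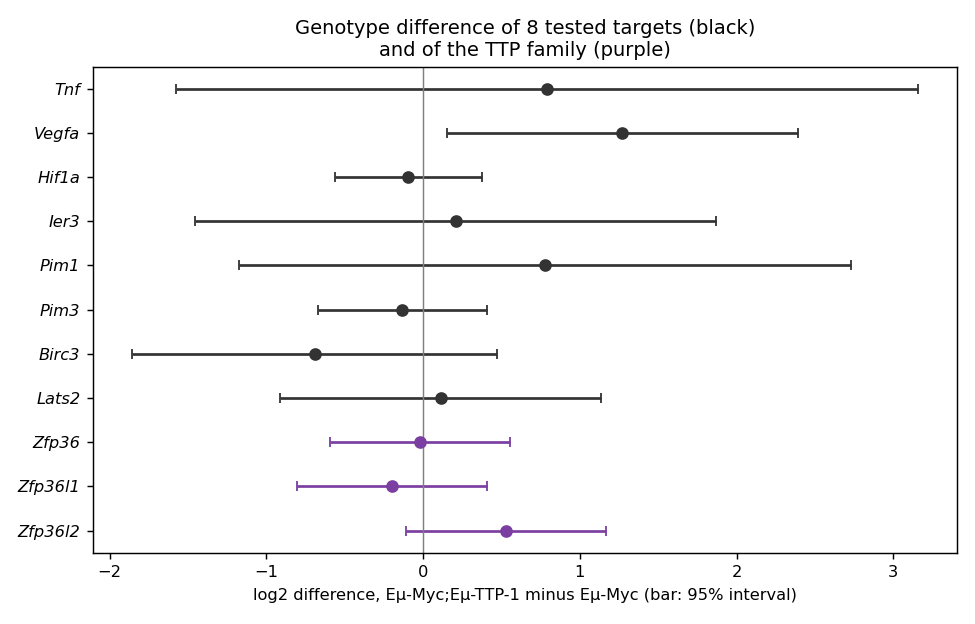
Log2 difference between genotypes (x axis, double-transgenic minus Eμ-Myc) with its 95% interval from limma for the 8 tested targets in black and Zfp36, Zfp36l1 and Zfp36l2 in purple. The interval of Vegfa, 0.15 to 2.39, lies above 0 before adjustment, and those of the other genes include 0.

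Ier3 is an early response gene that protects cells from TNF-induced death. It read 4.81, 6.75, 6.51 and 7.19 in Eμ-Myc replicates 1 to 4, and 5.95, 8.29, 4.74, 7.02 and 6.61 in double-transgenic replicates 1 to 5. Eμ-Myc replicate 1 and double-transgenic replicate 3 were the low arrays and double-transgenic replicate 2 the high one. The mean difference was, on the log2 scale, 0.21 (SE 0.73, limma adjusted p = 0.983), and it was -0.29 without Eμ-Myc replicate 1 and -0.23 without double-transgenic replicate 2, so it had no settled direction. Marker means of other cells are given beside Ier3 for its highest and lowest arrays. The stroma and endothelium list, 9 tested genes, averaged 10.71 where Ier3 was highest and 8.74 where it was lowest, and the granulocyte list, 8 tested genes with Cxcr2 at background, 9.86 and 3.79 in the same tumours. For the stromal list the order did not hold throughout. Eμ-Myc replicate 1, also low for Ier3, had a stromal mean of 9.41, above the 8.98 of Eμ-Myc replicate 2. The lowest stromal mean, 8.32, was in double-transgenic replicate 1. The granulocyte mean was low in Eμ-Myc replicate 1 too, at 4.85. It was lower still, at 4.26, in double-transgenic replicate 5, where Ier3 read 6.61. Summed intensities of the stromal list were 11386 to 64883 without and 6050 to 55931 with the TTP transgene, and those of the granulocyte list 810 to 19809 and 206 to 22182. Their part in the Ier3 values was not tested.

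Plk3, a stress-responsive kinase of the polo family, exceeded the background level in 1 tumour. Replicate 3 of Eμ-Myc had 5.08, and the other 8 arrays had 2.06 to 3.81. Of its 12 listed relatives and stress genes, 11 were tested, 8 were higher and 3 lower, and 0 passed (limma, lowest adjusted p 0.845), with 0 under an unadjusted p of 0.05. Gadd45a, which slows the cell cycle after DNA damage, had a log2 difference of 1.09 (SE 0.49) and Plk2 0.82 (SE 0.54). The transcription factor Atf3 had -0.82 (SE 0.46) and Gadd45b -0.48 (SE 1.21), which turned to 0.33 without Eμ-Myc replicate 2 and was also positive without Eμ-Myc replicate 4.

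Pim1 and Pim3 encode closely related serine/threonine kinases that promote survival and cooperate with Myc in lymphoma. Pim1 read 9.38, 8.81, 7.71 and 8.45 in Eμ-Myc replicates 1 to 4, and 7.71, 12.39, 9.09, 8.83 and 8.81 in double-transgenic replicates 1 to 5. Double-transgenic replicate 2 was far above every other array, while the other 4 of its group had 7.71 to 9.09, much like Eμ-Myc with 7.71 to 9.38. The difference in log2 level was 0.78 (SE 0.86, limma adjusted p = 0.915), and 0.02 (SE 0.42) without that array. The second Pim1 probe set gave the same picture, with 11.99 in that array and 7.55 to 8.96 elsewhere.

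Pim3 varied little apart from the same tumour. It read 10.67, 10.64, 10.63 and 10.52 in Eμ-Myc replicates 1 to 4, and 10.71, 9.62, 10.74, 10.70 and 10.64 in double-transgenic replicates 1 to 5. Thus double-transgenic replicate 2, where Pim1 was highest, was lowest for Pim3. On the log2 scale the difference was -0.13 (SE 0.24, limma adjusted p = 0.959), and 0.08 (SE 0.10) without that array. The suffix _x_at of this probe set marks possible cross-hybridisation with related sequences. The expressed probe set without that suffix read 8.37 in the same array and 8.97 to 9.59 elsewhere, with a difference of 0.03 (SE 0.25).

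Of the 9 listed PIM relatives, inducers and substrates, all were tested, 7 were higher and 2 lower, and 0 passed (limma, lowest adjusted p 0.86), with 0 under an unadjusted p of 0.05. The cell cycle inhibitor Cdkn1a had a log2 difference of 1.11 (SE 1.06) and Stat5a, which induces Pim1, 0.70 (SE 0.62). Without double-transgenic replicate 2 they were 0.42 and 0.20. Pim2, the remaining kinase of the family, had -0.28 (SE 1.21), which turned to 1.10 without Eμ-Myc replicate 1, where it read 13.43. Jak2 had -0.03 (SE 0.47) and changed sign without any of 5 arrays, reaching 0.17 without double-transgenic replicate 1.

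Birc3 encodes cIAP2, an inhibitor of apoptosis and ubiquitin ligase of TNF receptor signalling. It read 12.78, 10.91, 11.22 and 10.05 in Eμ-Myc replicates 1 to 4, and 10.39, 10.17, 11.41, 10.55 and 10.23 in double-transgenic replicates 1 to 5. Eμ-Myc replicate 1 was the highest array by a wide margin. The groups' log2 difference was -0.69 (SE 0.51), the lowest among the tested targets, with a 95% interval of -1.86 to 0.47 and a limma adjusted p of 0.878. It was -0.18 without Eμ-Myc replicate 1, so this array carried most of it. The second probe set was highest in the same 2 tumours, at 9.29 for replicate 1 of Eμ-Myc and 8.69 for replicate 3 of the double-transgenic group, with 6.89 to 7.69 in the others.

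Lats2, a kinase that restrains the growth-promoting coactivator YAP, was expressed in every tumour. It read 7.72, 8.05, 9.86 and 8.54 in Eμ-Myc replicates 1 to 4, and 8.72, 7.86, 8.73, 8.63 and 9.34 in double-transgenic replicates 1 to 5. The log2 difference came to 0.11 (SE 0.45, limma adjusted p = 0.987). Its sign changed when Eμ-Myc replicate 1 (-0.16) or 2 (-0.05) or double-transgenic replicate 5 (-0.06) was left out. This probe set carries the suffix _x_at too, and another without it followed it closely, with 7.51 to 9.84 over the arrays. Another expressed probe set read 3.83 in Eμ-Myc replicate 1 and 5.80 to 7.06 elsewhere. The remaining 3 did not pass the filter.

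Of 15 listed Hippo genes 12 were tested, 7 higher and 5 lower, and 0 passed (limma, lowest adjusted p 0.845). The scaffold Sav1 had a log2 difference of -0.65 (SE 0.26). It was the single gene of this list with an unadjusted limma p under 0.05, beside 5.67% of all tested genes. Yap1 itself had -0.49 (SE 0.28), while its relative Wwtr1 had 0.45 (SE 0.54) and the YAP target Ccn1 0.98 (SE 0.66).

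**Figure D3:**
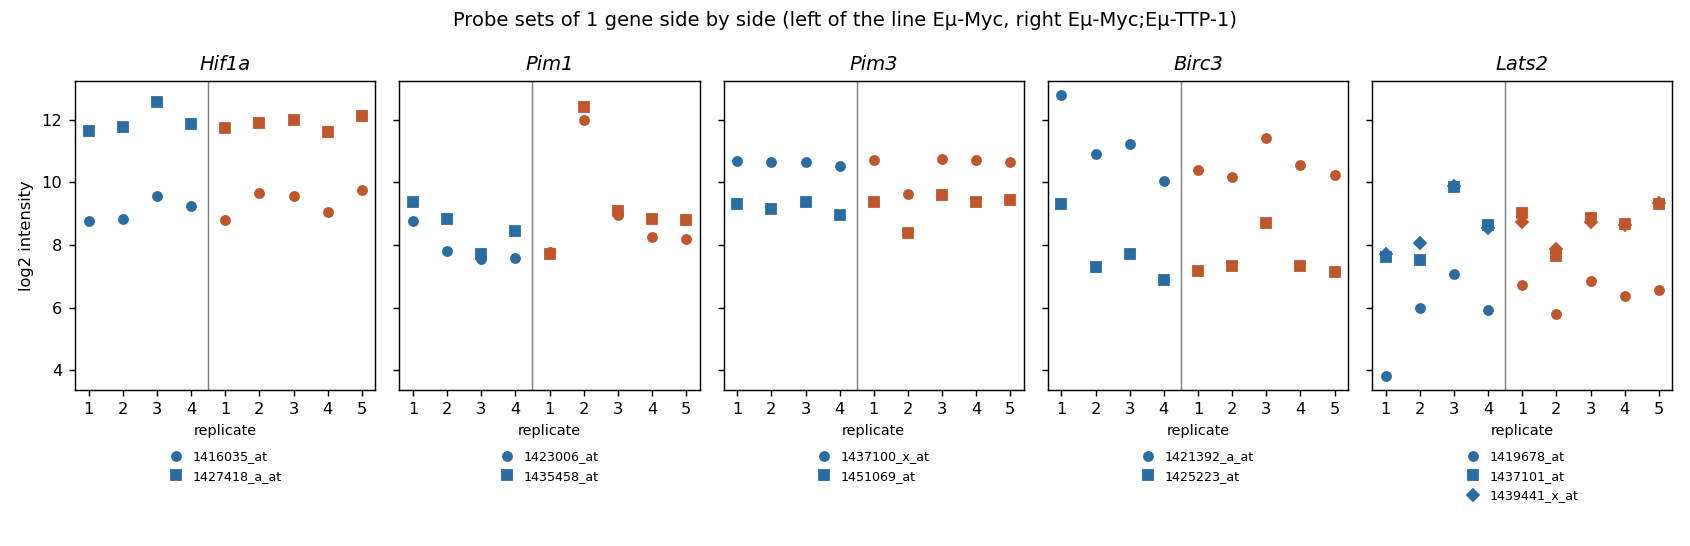
Log2 intensity (y axis) of every probe set that passed the filter for the 5 targets with more than 1, by replicate (x axis), Eμ-Myc left of the line and double-transgenic right of it; each symbol is a probe set. The probe sets of Pim1, Pim3 and Birc3 single out the same arrays, and those of Lats2 part in Eμ-Myc replicate 1, where 1 of them read 3.83.

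A wider list of 36 other mRNAs reported as TTP targets, cytokines and early response genes for the most part, was examined beside the 10. On the array 34 were named and 17 tested, with 9 higher, 8 lower and a median log2 difference of 0.09, and 0 passed (limma, lowest adjusted p 0.845). An unadjusted p under 0.05 was seen for 3 of them, against 5.67% of all tested genes. The phosphatase Dusp1 had a higher mean (0.76, SE 0.27), and the NF-kB cofactor Nfkbiz (-1.01, SE 0.39) and the AP-1 subunit Junb (-0.36, SE 0.13) had lower means. At the ends of the list stood Cdkn1a (1.11, SE 1.06), the early response factor Egr1 (1.10, SE 1.06) and Bcl3 (-0.82, SE 0.57). Of 9 other proteins that bind such mRNAs, all were tested, 6 were higher and 3 lower, with 0 under an unadjusted limma p of 0.05. Tia1, which silences AU-rich mRNAs, had 0.26 (SE 0.19) and Elavl1, which stabilises them, 0.18 (SE 0.11), while Rc3h1 had -0.15 (SE 0.14) and the RNase Zc3h12a -0.22 (SE 0.28), which was 0.0911 without Eμ-Myc replicate 1.

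The targets did not share a direction with the level of Zfp36 across the 9 tumours. Pearson's r with Zfp36 was positive for 5 and negative for 3 of the 8 tested targets, beside 44.8% positive and 55.2% negative over all other tested genes. An unadjusted exact permutation p under 0.05 was found for 3 of the 8, Ier3, Pim1 and Pim3, where 15.2% of 10171 genes had one (5.81% with a positive and 9.4% with a negative r). None passed after Benjamini-Hochberg adjustment over all genes, and 0 of all genes did. The Zfp36 values form sets of 4 and 5 arrays, so each coefficient takes in the step between the sets, and neither set has the 6 arrays needed for a coefficient of its own.

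Ier3 had the strongest coefficient with Zfp36, and it was negative. Pearson's r was -0.75 (exact permutation p = 0.0179, adjusted over all genes 0.233) and Spearman's rho -0.78 (exact permutation p = 0.0172). Without Eμ-Myc replicate 2 and double-transgenic replicate 2, the arrays farthest from the median of Zfp36, r was -0.59 (exact permutation p = 0.132). With the genotype means removed r was -0.75, and when arrays were left out in turn it ran from -0.85 to -0.61. The tumour with the lowest Zfp36, double-transgenic replicate 2, had the highest Ier3. Some other lists had mostly negative r with Zfp36, beside 55.2% of all other tested genes. They were granulocyte genes (7 of 8 tested, median r -0.58) and stromal and endothelial genes (8 of 9, -0.50). All 9 PIM relatives, inducers and substrates were negative (-0.61). Of 17 other reported TTP targets 11 were positive and 6 negative (0.19), and of 13 macrophage genes 7 and 6 (0.04). The part of other cells in the Ier3 coefficient was not tested.

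The coefficients of both PIM kinases were smaller without double-transgenic replicate 2. For Pim1, r with Zfp36 was -0.63 (exact permutation p = 0.0394, adjusted 0.296) and rho -0.48 (exact permutation p = 0.194). For Pim3, r was 0.65 (exact permutation p = 0.0178, adjusted 0.233) and rho 0.50 (exact permutation p = 0.178). Without the arrays farthest from the median of Zfp36, r was -0.22 for Pim1 and 0.45 for Pim3, and without double-transgenic replicate 2 alone it was -0.26 and 0.43. For Pim3 r was 0.79 when _x_at probe sets were left out.

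The remaining targets had weaker coefficients with Zfp36. Lats2 had r = 0.58 and rho = 0.55 (exact permutation p = 0.100 and 0.133), Tnf 0.54 and 0.40 (0.128 and 0.291), Birc3 0.49 and 0.55 (0.170 and 0.133), Hif1a 0.43 and 0.15 (0.259 and 0.708), and Vegfa -0.24 and -0.12 (0.530 and 0.766). Their adjusted p ranged from 0.420 to 0.792. Without the 2 farthest arrays r was 0.33 for Lats2, 0.49 for Tnf, 0.49 for Birc3, 0.496 for Hif1a and -0.03 for Vegfa. For Hif1a r was 0.11 without Eμ-Myc replicate 3 alone and 0.19 with the mean of its probe sets, those at background among them.

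**Figure D4:**
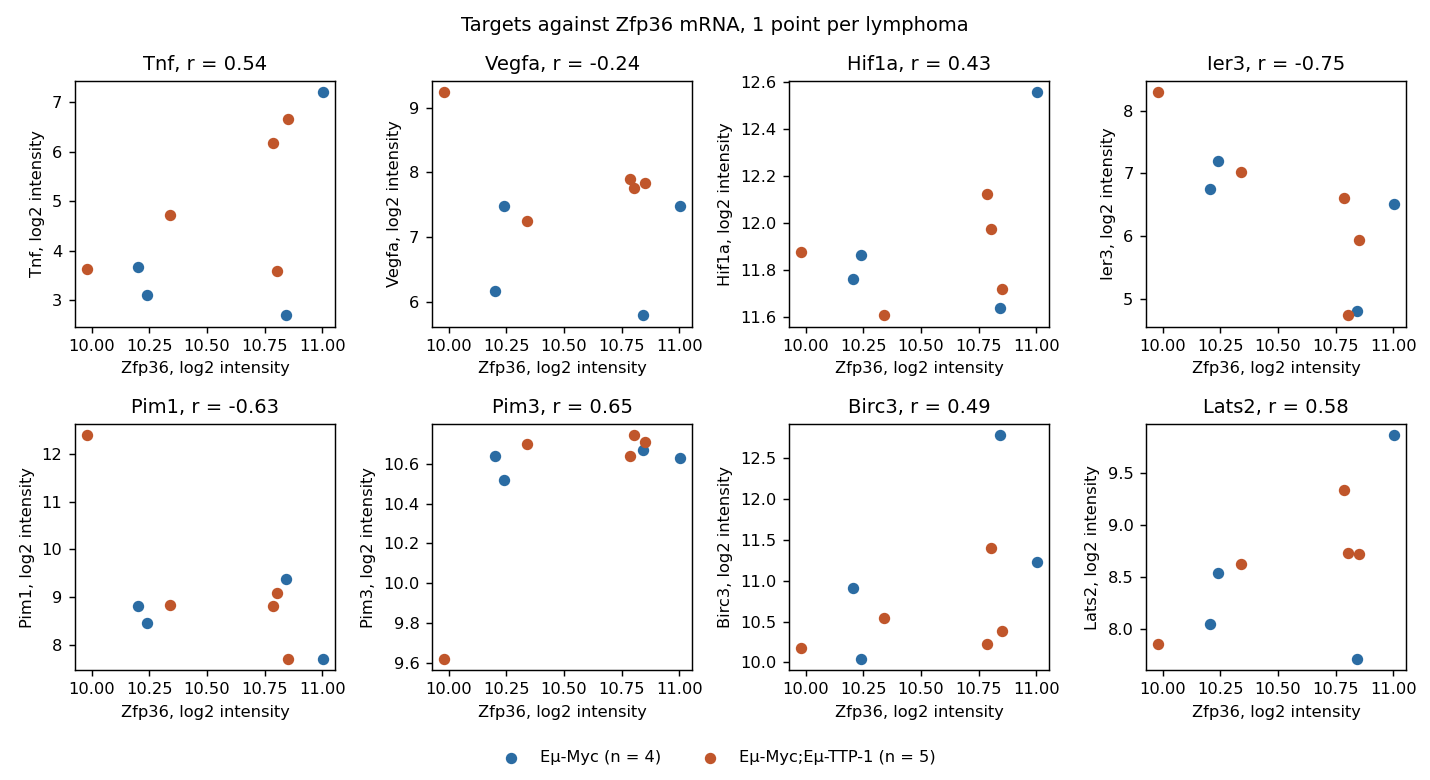
Log2 intensity of each tested target (y axis) against that of Zfp36 (x axis), 1 point per lymphoma, Eμ-Myc in blue (n = 4) and double-transgenic in orange (n = 5), with Pearson's r above each panel. The arrays leave a gap between 10.34 and 10.79 on the x axis, and the single point far from the rest in the Pim1 and Pim3 panels is double-transgenic replicate 2.

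Zfp36l1 and Zfp36 were correlated over the tumours, with r = 0.87 and rho = 0.82 (exact permutation p = 0.00152 and 0.0108, the former 0.139 after adjustment over all genes; r = 0.83 without the 2 arrays farthest in Zfp36), so the relations to the pair are not independent. Of the 8 targets, 5 had a positive and 3 a negative r with Zfp36l1, beside 42.5% positive and 57.5% negative over all genes. An unadjusted exact permutation p under 0.05 was found for 2, Hif1a and Lats2, where 11.3% of all genes had one and 5.17% had one with a positive r. Hif1a had r = 0.77 and rho = 0.60 (exact permutation p = 0.0188 and 0.0968, adjusted p of r 0.352), and r was 0.62 without Eμ-Myc replicate 3 and double-transgenic replicate 2, the arrays farthest from the median. Both genes lie on chromosome 12, whose median gene was 0.34 higher in Eμ-Myc replicate 3. Centred by chromosome, r was 0.63. It was 0.42 without that tumour alone and 0.44 with the mean of probe sets, so the coefficient of Hif1a depended on both choices.

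Lats2 had r = 0.75 and rho = 0.77 with Zfp36l1 (exact permutation p = 0.0205 and 0.0214, adjusted p of r 0.357). Without the same 2 arrays r was 0.32, and without the 2 arrays farthest in Lats2 it was 0.71. With single arrays left out it ran from 0.50 to 0.86, and with genotype as a term it was 0.80. Lats2 lies on chromosome 14, whose median gene was 0.19 higher in Eμ-Myc replicate 3. The other targets had r between -0.63 for Pim1 and 0.62 for Tnf. Ier3 had r = -0.50 and rho = -0.75 (exact permutation p = 0.165 and 0.0255).

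With Zfp36l2, 6 of the 8 targets had a positive r, beside 52.6% positive and 47.4% negative over all genes. None of the 8 had an unadjusted exact permutation p under 0.05, where 7.64% of all genes did (3.88% positive, 3.76% negative). The highest was Vegfa with r = 0.62 and rho = 0.43 (exact permutation p = 0.0742 and 0.253, the former 0.673 adjusted), and r was 0.69 without Eμ-Myc replicates 1 and 4, the tumours with low Zfp36l2. It was 0.39 without Eμ-Myc replicate 1 alone, 0.45 without double-transgenic replicate 2 and 0.40 with genotype as a term. Tnf had r = 0.56 and rho = 0.68 (exact permutation p = 0.115 and 0.0503, the former 0.717 adjusted), but r was 0.08 without Eμ-Myc replicates 1 and 4. Pim3 and Birc3 had negative coefficients of -0.40 and -0.41. Zfp36l2 lies on chromosome 17, as do Tnf, Vegfa, Ier3 and Pim1. The median gene of that chromosome was 0.33 higher in double-transgenic replicate 5. Across the 3 regulators, 24 coefficients of targets were computed, and none passed.

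Among themselves the targets were correlated in both directions, and no pair passed after adjustment over all genes. The smallest exact permutation p of a pair was that of Ier3 and Pim3, 0.00341 (0.215 adjusted over the genes compared with Ier3, 0.465 over those compared with Pim3), with r = -0.70 and rho = -0.75 (exact permutation p = 0.0255). Without the 2 arrays farthest in Ier3 r was -0.88, and without those farthest in Pim3 it was -0.55. Lats2 and Tnf were both highest in Eμ-Myc replicate 3, with r = 0.82 and rho = 0.72 (exact permutation p = 0.00588 and 0.0369; adjusted over the genes compared with Lats2, p of r 0.272; r = 0.63 without the 2 arrays farthest in Lats2). Lats2 and Hif1a had r = 0.80 and rho = 0.63 (exact permutation p = 0.00853 and 0.0760; r = 0.74 without the 2 arrays farthest in Hif1a and 0.45 without those farthest in Lats2). Birc3 and Ier3 ran against each other, with r = -0.76 and rho = -0.78 (exact permutation p = 0.0159 and 0.0172, the former 0.429 adjusted over the genes compared with Birc3), and r was -0.39 without the pair of arrays farthest from the median of either gene. Pim1 and Pim3 had r = -0.88 but rho = -0.05 (exact permutation p = 0.0762 and 0.912), and r was 0.49 without double-transgenic replicates 1 and 2, the arrays farthest in Pim1.

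**Figure D5:**
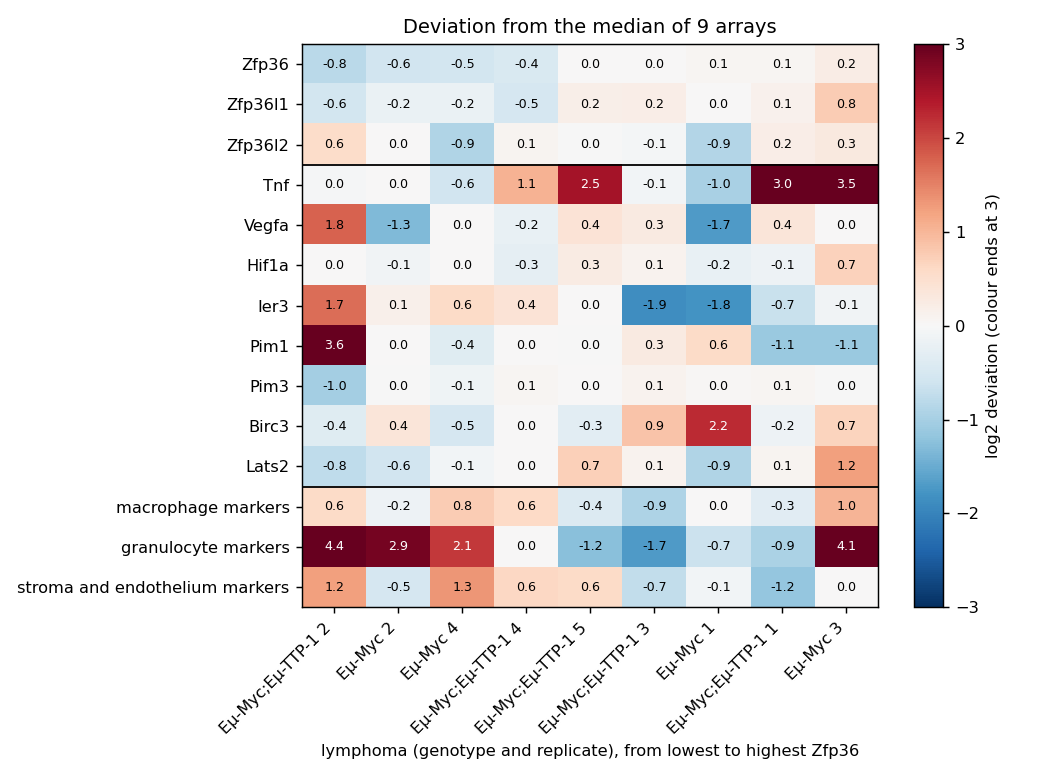
Log2 deviation from the median of the 9 arrays (colour and printed value) for the regulators, the 8 tested targets and the means of 3 marker lists (rows), with lymphomas (columns) ordered from lowest to highest Zfp36. High values sit in different tumours for different targets: Pim1 and Ier3 in double-transgenic replicate 2, Birc3 in Eμ-Myc replicate 1, and Tnf in double-transgenic replicates 1 and 5 and Eμ-Myc replicate 3.

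The genes most like each target over the 9 arrays, taken as the highest Pearson's r among all tested genes, were these. For Ier3 the most alike was Tmem179b, with r = 0.99 and rho = 0.95 (exact permutation p = 2.20e-05 and 3.53e-04; r = 0.97 without the 2 arrays farthest in Ier3). For Lats2 it was the prostaglandin transporter Slco2a1 (r = 0.98, rho = 0.97, exact permutation p = 4.13e-05 and 1.65e-04; r = 0.98 without 2 arrays). For Tnf it was Mitf, a transcription factor of macrophages and melanocytes (r = 0.96, rho = 0.83, exact permutation p = 2.15e-04 and 0.00827; r = 0.91 without 2 arrays), with 5 of the 9 Tnf values under the background level. For Birc3 it was Wdfy4 (r = 0.95, rho = 0.93, exact permutation p = 5.24e-05 and 7.50e-04; r = 0.91 without 2 arrays). For Pim3 it was the transcriptional repressor Gfi1 (r = 0.98, rho = 0.70, exact permutation p = 0.0195 and 0.0433; r = 0.89 without 2 arrays), which read 3.17 in double-transgenic replicate 2 and 9.91 to 10.98 elsewhere. For Vegfa it was the polyamine oxidase Smox (r = 0.95, rho = 0.90, exact permutation p = 5.18e-04 and 0.00211; r = 0.88 without 2 arrays). For Pim1 it was Ddah2 (r = 0.97, rho = 0.87, exact permutation p = 0.00111 and 0.00368; r = 0.77 without 2 arrays), and for Hif1a Enpp5 (r = 0.96, rho = 0.88, exact permutation p = 6.61e-05 and 0.00301; r = 0.92 without 2 arrays). The next in order, with r from 0.93 to 0.98, were Mapk6 for Ier3, Acp2 for Lats2, Ackr4 for Tnf, Tmem199 for Birc3, Cd22 for Pim3, Vwa5a for Vegfa, Ccpg1os for Pim1 and Itga1 for Hif1a. Of these, Cd22 had rho = 0.47 with Pim3 (exact permutation p = 0.213), and r was -0.24 without the 2 arrays farthest in Pim3, double-transgenic replicate 2 among them. Each leading gene is the highest of 10171 coefficients, and no gene passed the adjustment for any of the 8 targets, with 661 to 1344 genes per target under an unadjusted p of 0.05.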

How the data were processed

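RNA of 9 lymphomas was hybridised to 1 array each. The authors deposited intensity values per probe set, made with GCRMA per the submitters' processing notes (version not given in the sources used here), which corrects background and normalises between arrays. The values, from 1.56 to 123105 with array medians of 12.2 to 13.4, are on a linear scale, so log2 values were used with no pseudocount. Scanner files were not analysed here, so scan batches could not be examined. The arrays' number limits the precision.

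The platform annotation lists 1 gene for 34945 of 45037 probe sets, several for 932 and none for 9160. Symbols and chromosomes came from RefSeq (GRCm38.p6), which matched 34741. For each of 18193 genes the probe set of highest mean was taken, and 10172 genes with a log2 value over 4 in at least 4 arrays were tested. The genotype test was that of limma 3.58.1 under R 4.3.3 (lmFit, then eBayes; two-sided p adjusted by Benjamini-Hochberg over all tested genes, threshold 0.05). Exact permutation covered all splits of the arrays for differences (smallest two-sided p 0.00794) and the 362880 pairings for coefficients, two-sided on their size, computed with numba 0.67.0 in Python 3.11.15. Both were tested on simulated data. Since the labels do not say that tumours came from separate animals, p-values measure the spread between these samples.

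The targets and the gene lists were chosen with earlier results of these data known. Named genes were all targets, the 3 regulators, up to 2 tested genes at each end of each list, and the 2 genes most like each target. Genes with an unadjusted p under 0.05, Csf1r, Cd79b, Blk and Pax5 were named after their values were seen. Alternatives were other filters, probe set choices and scalings, a pseudocount of 16, centring by chromosome, a robust prior with an intensity trend, weights for arrays, the replicate numbers as a block, a macrophage covariate, and each array left out. For the genes of the other lists, leaving out each array was chosen after seeing the data, and gave differences with no test.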

Additional observations from a re-analysis of the deposited data

Results flagged for a closer look

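In 4 of 36 groups of values tested for a single array far from the rest of its group, 1 array stood apart, where chance gives about 1 in 20, or 1.8. A group was 1 expressed probe set of a target or regulator in 1 genotype. Groups that share a gene or the same tumours are not independent, so the count of 4 does not show an excess. All 4 were in the double-transgenic group. The second Pim1 probe set read 11.99 in replicate 2 against 7.79 to 8.96 in the other 4 arrays. Both expressed Pim3 probe sets were low in the same array, at 9.62 against 10.64 to 10.74 and at 8.37 against 9.36 to 9.59. The second Birc3 probe set read 8.69 in replicate 3 against 7.12 to 7.31.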

How the results depend on the processing

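No target and no regulator passed under any alternative run, for the genotype or for the coefficients. The differences of Vegfa (0.86 to 1.64), Tnf, Pim1, Birc3 and Zfp36l2 kept their sign in all of these runs. The mean of probe sets took in those at background, and gave 0.86 for Vegfa and 0.18 for Zfp36l2. Genes called between genotypes ranged from 0 to 8 over the fits that each lacked 1 array: 8 without Eμ-Myc replicate 3 and 1, Mucl2, without replicate 4. Deviations of same-numbered samples over all tested genes correlated at -0.09, 0.09, -0.00334 and 0.20, and 3 of 8 samples correlated best with their own number. So few correlations cannot decide whether the numbers have a part in the values. With the replicate numbers as a block 0 genes were called and the difference of Lats2 was -0.0591. The SE of the difference with and without that block was 0.14 and 0.25 for Zfp36, 0.17 and 0.27 for Zfp36l1, and 0.29 and 0.28 for Zfp36l2. Related to Zfp36 were 3 genes with quantile normalisation and 13 with limma on the Zfp36 level, against 0 by exact permutation. Among the 13 was the listed stress gene Gadd45b, with a slope of -4.91 (SE 0.51, limma adjusted p = 0.0181). Gadd45b read 8.83 to 10.72 in the arrays of the low Zfp36 set and 6.13 to 7.07 in those of the high set. Related to Zfp36l2 were 2 genes with the mean of probe sets, 1 with median centring and 1, Atp10a, with limma. Differences turned sign under array weights for Ier3 (-0.21), Pim3 (0.00898) and Zfp36 (0.15), without _x_at probe sets for Pim3 (0.0340) and with the mean of probe sets for Hif1a (0.0558). Arrays left out gave ranges of -0.29 to 0.65 for Ier3, -0.20 to 0.0832 for Pim3, -0.20 to 0.11 for Hif1a, -0.16 to 0.55 for Lats2, -0.14 to 0.12 for Zfp36 and -0.30 to 0.0254 for Zfp36l1. The coefficient of Vegfa with Zfp36l1 was 0.0921 by rank, 0.33 without the 2 farthest arrays and 0.0592 with genotype as a term. With Zfp36l2, Pim1 had -0.0667 by rank and Lats2 -0.21 without the 2 farthest arrays. Arrays left out gave -0.50 to 0.27 for Vegfa with Zfp36, -0.25 to 0.32 for Vegfa with Zfp36l1 and, with Zfp36l2, -0.51 to 0.40 for Pim1, -0.52 to 0.50 for Pim3, -0.85 to 0.23 for Birc3 and -6.86e-04 to 0.61 for Lats2. Of 51 genes of the other lists, named for their difference or their unadjusted p, 13 changed sign without some array, an alternative chosen after seeing the data. The cause of these changes was not tested. Tnf was not tested with the log2 filter of 6.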

Other observations

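The marker lists of other cells gave further values. The counts of higher and lower means stand beside 58.9% of all tested genes with a higher mean. Among 9 tested B cell genes, 6 had a higher and 3 a lower mean with the TTP transgene. Ebf1, a transcription factor of early B cells, differed by 0.80 on the log2 scale (SE 0.22, adjusted p from limma 0.845). Its values did not overlap between the groups, as for 1.64% of all tested genes. Cr2, a complement receptor of mature B cells, had 1.34 (SE 1.58), with readings of 2.81 to 10.43 that reach under the background level. Cd22 had -1.05 (SE 1.17) and Fcrla -1.14 (SE 1.52). Without double-transgenic replicate 2 the last 2 turned to 0.0675 and 0.29. Of 13 macrophage genes 10 had lower means, with Marco (-2.46, SE 0.77) and Adgre1 (-1.80, SE 1.16) at that end, while Spi1 (0.46, SE 0.40) and Lyz2 (0.46, SE 0.43) had higher means. Marco read 3.11 to 4.40 with the TTP transgene and 3.99 in Eμ-Myc replicate 4, about the background level, so its fold is poorly determined. All 8 tested granulocyte genes had lower means over the 9 arrays, from Ngp (-3.15, SE 1.68) and S100a9 (-3.11, SE 1.63) to Mmp9 (-0.99, SE 1.28) and Prtn3 (-0.02, SE 1.63). This count hung on single arrays: Mmp9 turned to 0.54 without Eμ-Myc replicate 3, and Prtn3 ran from -1.48 without double-transgenic replicate 2 to 0.51 without Eμ-Myc replicate 3. Of 9 stromal and endothelial genes, 5 were higher and 4 lower, with Dcn (-0.86, SE 0.28) and Col3a1 (-1.11, SE 1.34) at one end and Emcn (0.69, SE 0.38) and Kdr (0.69, SE 0.45) at the other. Of 12 T and natural killer cell genes 5 were tested, with Cd3e, Cd5 and Ncr1 at background in all arrays, 4 higher and 1 lower, from Cd8a (-0.22, SE 0.15) and Cd3d (0.06, SE 1.00) to Cd4 (0.40, SE 1.12) and Thy1 (0.59, SE 1.29). With an array left out, Thy1 reached -0.20, Cd4 -0.11 and Cd3d -0.54. None of these genes passed limma after adjustment.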
